A study of Mus musculus with 35 samples.

Results

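The genes described here are 43 targets of the sterol regulatory element-binding proteins (SREBPs), measured in organoids of mouse colon tumour. They were chosen by gene name: 21 genes of cholesterol synthesis and its control, taken as SREBP2 targets, and 22 genes of fatty acid and glycerolipid synthesis, taken as SREBP1 targets. All 43 were found among the 54354 genes of the deposited table, and 42 passed the filter on low counts in both experiments. The exception was Acacb, an acetyl-CoA carboxylase, which had no read in 8 of 15 carmofur libraries and 9 of 12 of their controls.

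Polyadenylated RNA was sequenced in 35 libraries of organoids of the genotype labelled AKP, which every group shares. Organoids treated with palmitic acid, a saturated fatty acid, gave 3 libraries labelled batch 1 and 2 labelled batch 2, set against 3 controls (vehicle not stated) that the labels assign to neither batch. Organoids treated with carmofur, which the study's design text calls a ceramidase inhibitor, gave 15 libraries, set against 12 controls of their own. The labels give no dose or time, and do not say whether replicates were separate cultures or how many organoid lines were used. A p-value therefore measures the spread between libraries, which may be technical.

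SREBPs are transcription factors made as precursors in the membrane of the endoplasmic reticulum. When sterols are scarce, an escort protein carries them to the Golgi, where proteases release the part that enters the nucleus; when sterols are plentiful, INSIG proteins hold the complex back. SREBP2 mainly drives the genes of cholesterol synthesis and SREBP1 those of fatty acid synthesis, and the Srebf2 gene is itself among the targets of SREBP2. In gut epithelium both routes supply membrane lipid to dividing cells.

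Library depth ran from 2138905 to 2845017 counts in palmitic acid batch 1, 2406582 to 3742289 in batch 2 and 762888 to 2511723 in their controls, and from 3127275 to 10609563 with carmofur and 1663750 to 8124707 in its controls. Levels below are in CPM, read counts scaled to library size after TMM normalisation. The limit that a count of 0 allows, 3 counts, was 0.292 to 3.87 CPM, which covers counting error only. Of 12 colon epithelium markers examined, 10 to 12 were detected in each library. Of the 8 mesenchyme markers 4 were at 0 in every library, as were 3 of 8 immune and 5 of 8 endothelial and blood markers. Of the others, Cd68 (immune) and Pecam1 (endothelial) had reads in every library, at group means of 28 to 57 and 8.72 to 13.8 CPM. The names of the carmofur libraries and their controls carry running numbers, which form 9 sets of 3 neighbours from the same group and 3 blocks of 12 numbers. No label calls these batches. Libraries of some sets lay close together, as described for Srebf2 and Hmgcs1 below. In a previous look at these data carmofur control 1 and carmofur 8 and 10 stood apart, so results are also given without these 3 libraries. In bulk RNA, fewer cells of a type and less RNA per cell cannot be told apart.

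The upstream sequences of 4 cholesterol genes are shown because they differ in what happened to the gene with carmofur. Over all carmofur libraries and controls, Srebf2 and Sc5d passed the test as higher and Pmvk as lower. Hmgcs1 passed as lower within a single block of libraries. With counts summed over each set of library numbers, Srebf2 kept this call, and those of Sc5d, Pmvk and Hmgcs1 were lost. The sequences come from the RefSeq promoter table (build GRCm38.p6) and end before both the RefSeq start site and the annotated gene. Capitals mark the letters TCACNCCAC, a core of the sterol regulatory element, and CCAAT, the box bound by NF-Y, on either strand. They lie at chr15:82147019-82147180 (plus strand), chr9:42264301-42264550 (minus), chr13:119690101-119690350 (plus) and chr3:89454291-89454540 (plus), in the order printed.
Srebf2: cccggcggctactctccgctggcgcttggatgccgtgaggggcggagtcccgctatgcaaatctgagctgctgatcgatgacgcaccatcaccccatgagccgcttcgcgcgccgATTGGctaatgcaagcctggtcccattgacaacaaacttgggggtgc
Sc5d: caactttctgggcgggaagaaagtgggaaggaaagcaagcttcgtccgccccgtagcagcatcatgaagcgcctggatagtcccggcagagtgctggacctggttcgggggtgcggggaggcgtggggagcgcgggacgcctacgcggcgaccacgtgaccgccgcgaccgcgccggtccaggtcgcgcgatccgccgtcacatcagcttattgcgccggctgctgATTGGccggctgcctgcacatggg
Hmgcs1: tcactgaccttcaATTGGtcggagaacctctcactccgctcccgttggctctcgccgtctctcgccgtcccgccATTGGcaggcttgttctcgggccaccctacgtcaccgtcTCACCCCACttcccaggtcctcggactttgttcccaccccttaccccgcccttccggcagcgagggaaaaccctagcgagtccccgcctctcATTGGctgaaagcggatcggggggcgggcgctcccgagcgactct
Pmvk: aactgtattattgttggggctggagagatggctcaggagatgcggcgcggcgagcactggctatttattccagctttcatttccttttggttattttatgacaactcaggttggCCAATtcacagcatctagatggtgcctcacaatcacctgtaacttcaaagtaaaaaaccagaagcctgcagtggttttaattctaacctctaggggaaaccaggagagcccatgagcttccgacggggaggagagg

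Of these 4, Hmgcs1 alone holds the letters TCACNCCAC, at -137 from the start site, and its 3 upstream CCAAT boxes stand at -237, -176 and -45. Promoter windows of 300 bases (250 before the start site and 50 after it) were found for 34 of the 43 members, 42 windows in all. TCACNCCAC occurred in 1 of 20 cholesterol windows (5.0%) and 0 of 22 fatty acid windows, against 1.24% of all 32851 windows in the table. CCAAT occurred in 80.0% of cholesterol windows and 45.5% of fatty acid windows, against 37.4% of all windows. The E-box CACGTG occurred in 4 of 20 cholesterol windows and 1 of 22 fatty acid windows, against 7.15% of all, and the GC box GGGCGG in 17 of 20 and 12 of 22, against 35.7%. Windows of a gene can overlap, and a match is a description of letters, not a site.

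Cholesterol genes were the more abundant group in control organoids. Per kilobase of exon, Fdps (farnesyl diphosphate synthase, which makes the precursor of sterols and prenyl groups) had the highest level of all members, 269 CPM per kb in palmitic acid controls and 253 CPM per kb in carmofur controls. Tmem97, Idi1, Pmvk, Acat2, Msmo1 and Hmgcs1 followed in both, at 108 to 146 and 140 to 188 CPM per kb. The highest fatty acid gene was Scd2, a stearoyl-CoA desaturase, at 94.0 CPM per kb in palmitic acid controls and 124 CPM per kb in carmofur controls. Fatty acid synthase itself (Fasn) stood at 1.09 and 1.4 CPM per kb, and Srebf1, which encodes SREBP1, at 1.46 and 1.99 CPM per kb. Lower still were Acaca, the rate-setting carboxylase of fatty acid synthesis, at 0.567 and 1.15 CPM per kb, and Acacb, the mitochondrial carboxylase whose product restrains fatty acid oxidation, at 0.134 and 0.0906 CPM per kb. All 21 cholesterol genes had reads in every library. Of the 22 fatty acid genes 15 did, and Acacb, Fads1, Srebf1, Gpam, Lpin1, Dgat1 and Dgat2 were at 0 in at least 1 library.

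Palmitic acid in batch 1 was accompanied by a higher summed level of the cholesterol genes, with a single gene past the test. Abundant genes weigh most in this sum, as Fdps alone had means of 1610 CPM in batch 1 and 1130 CPM in controls. The summed level of the 21 cholesterol genes was 5960 to 6280 CPM in the batch 1 libraries, against 4820 to 5280 CPM in the controls. The 22 fatty acid genes summed to 1060 to 1180 CPM in batch 1 and 1130 to 1230 CPM in controls, ranges that overlap. Fdps rose, and 16 of 21 cholesterol genes had a positive log2 fold change, as did 51.3% of all 9845 genes tested. The median of the 21 was 0.27, against 0.01 over all genes. In all, 1 of 21 cholesterol genes and 0 of 21 fatty acid genes tested passed an adjusted p of 0.05 (Benjamini-Hochberg over all genes tested by the quasi-likelihood F test of edgeR, as for all adjusted p-values here unless another tool is named), where 0.559% of all genes passed. At an unadjusted p under 0.05 the counts were 4 of 21 cholesterol and 1 of 21 fatty acid genes, where 7.73% of all genes were. DESeq2 called 2 cholesterol and 0 fatty acid genes, and 80 genes in all, against 55 in edgeR.

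**Figure D1:**
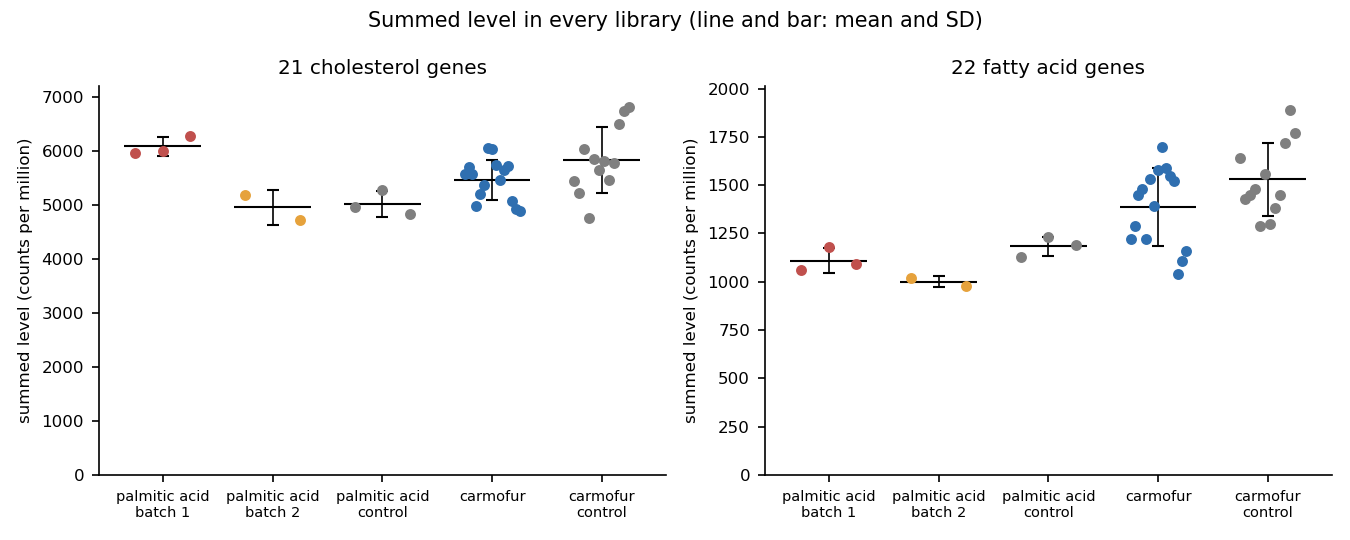
Summed level of the 21 cholesterol genes (left) and the 22 fatty acid genes (right) in each library, in CPM; points are libraries, and the line and bar are the mean and SD of the group. The 3 palmitic acid batch 1 libraries sit between 5960 and 6280 for cholesterol genes, above all 3 of their controls, while carmofur and its controls overlap in both panels.

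Among the early, mevalonate and isoprenoid, steps, Fdps (mm10 chromosome 3, 89093588 to 89101959, minus strand) had 1370, 1470 and 1980 CPM in batch 1, against 1100, 1160 and 1140 CPM in controls. Every batch 1 library was above every control, the replicate 3 library farthest. The difference was 0.50 ± 0.12 on the log2 scale (log2 fold change ± SE, as below; adjusted p = 0.0214 in edgeR). The call was lost without control replicate 1 (adjusted p = 0.0932), batch 1 replicate 2 (0.131) or batch 1 replicate 3 (0.664, log2 fold change 0.33), and with both batches as 1 treated group (0.328, log2 fold change 0.33). Gm43738, a coding gene, is annotated over Fdps on the same strand, so how reads were divided between them is uncertain. With the counts of both added, a setting chosen after the data were seen, the log2 fold change was 0.49 ± 0.11 (adjusted p = 0.0159).

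Hmgcs1, the synthase that makes HMG-CoA (chromosome 13, 119690379 to 119708260), had 408, 591 and 442 CPM in batch 1, against 490, 580 and 419 CPM in controls, groups that overlap (log2 fold change -0.05 ± 0.14). The mevalonate kinase Mvk had 23.7, 23.7 and 16.8 CPM in batch 1, against 12.9, 14.5 and 15.3 CPM in controls. Although these ranges did not overlap, its log2 fold change was 0.58 ± 0.48 (adjusted p = 0.86). The other early members were between -0.26 (the phosphomevalonate kinase Pmvk) and 0.47 (the decarboxylase Mvd).

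Of the 10 squalene and sterol steps, 8 had a positive log2 fold change and none passed the test. Nearest was Msmo1, a methylsterol oxidase (chromosome 8, 64718139 to 64733792), with 1110, 908 and 886 CPM in batch 1, against 682, 710 and 734 CPM in controls. The groups did not overlap, and the log2 fold change was 0.45 ± 0.12 (adjusted p = 0.0749; 0.0224 with DESeq2). The squalene epoxidase Sqle had 93.1, 94.1 and 97.6 CPM in batch 1, against 58, 84.2 and 64.3 CPM in controls, also without overlap (0.45 ± 0.24, adjusted p = 0.67). In total 7 of 21 cholesterol genes (Sqle, Fdps, Mvk, Nsdhl, Msmo1, Ebp and Tmem97) had every batch 1 library above every control and none had every library below, where 6.92% of all genes tested were above and 6.12% below.

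Sterol sensing and transport genes showed no call in batch 1. Srebf2 (chromosome 15, 82147181 to 82205379) had 173, 186 and 166 CPM in batch 1, against 200, 226 and 161 CPM in controls (log2 fold change -0.16 ± 0.17). Insig1, which retains SREBPs in the endoplasmic reticulum, had 47.8, 61.2 and 57.2 CPM in batch 1, against 29.6, 71.3 and 53.1 CPM in controls (0.07 ± 0.30). Both pairs of groups overlapped. Stard4, a cholesterol carrier, and Tmem97, a sterol-regulated membrane protein, were at 0.17 and 0.30. Beside these values, the 12 colon epithelium markers summed to 3230 to 3360 CPM in batch 1 and 3820 to 4130 CPM in controls, and their part in the result was not tested.

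**Figure D2:**
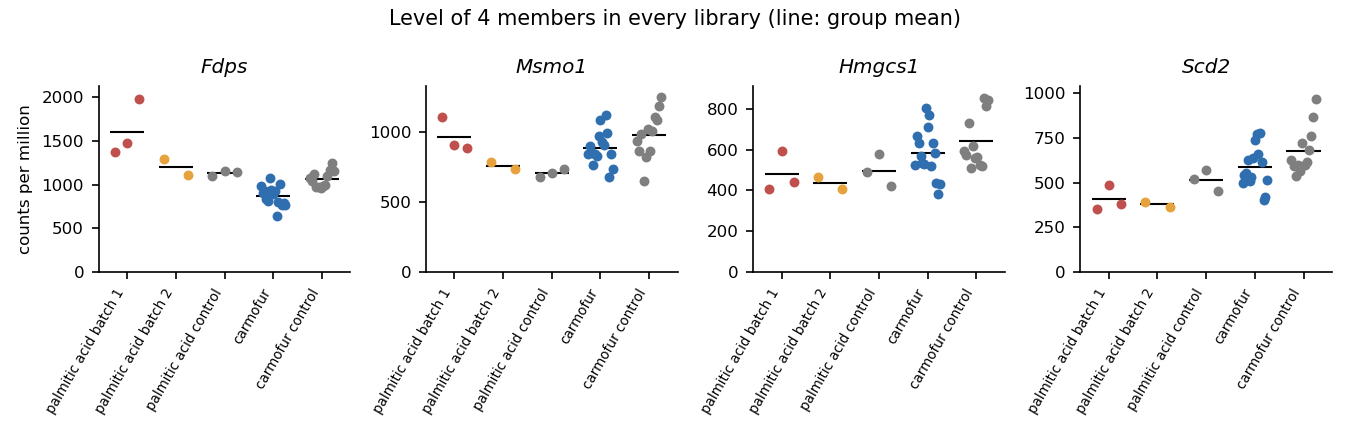
Level of Fdps, Msmo1, Hmgcs1 and Scd2 in each library, in CPM, by group, with the line at the group mean. Fdps and Msmo1 are above all controls in palmitic acid batch 1 (1370 to 1980 and 886 to 1110), and Scd2 and Hmgcs1 overlap there with their controls.

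The fatty acid genes gave no call in batch 1. Among the desaturases, Scd2 had 352, 488 and 380 CPM in batch 1, against 522, 569 and 450 CPM in controls (log2 fold change -0.34 ± 0.14, adjusted p = 0.507). Its relative Scd1 had 65.9, 69.7 and 79.3 CPM in batch 1, against 90.2, 63.1 and 81 CPM in controls (-0.11 ± 0.25). The ranges overlapped for both. Fasn had 12.9, 18 and 16.8 CPM in batch 1, against 3.87, 16.1 and 15.7 CPM in controls, where the lowest value is 3 counts of the shallowest library. Acaca had 11.6, 8.85 and 12 CPM in batch 1, against 7.73, 11.4 and 9.9 CPM in controls, and Srebf1 had 6.03, 9.91 and 5.29 CPM in batch 1, against 0, 6.66 and 18 CPM in controls, where the 0 allows up to 3.87 CPM. Of the 21 tested, only Me1, the malic enzyme that supplies NADPH, separated the groups, with 29.7, 21.6 and 28.8 CPM in batch 1, against 45.1, 32.1 and 38.7 CPM in controls (-0.52 ± 0.36, adjusted p = 0.81); 6.12% of all genes were likewise below every control. The other fatty acid members ran from -0.66 for the acetyl-CoA synthetase Acss2 to 1.3 for the acyltransferase Dgat1, and the median of the 21 was 0.14.

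Palmitic acid batch 2, compared with the same 3 controls, showed no higher summed level of the cholesterol genes. The 21 genes summed to 5180 and 4720 CPM in the 2 libraries, within or below the 4820 to 5280 CPM of the controls. No member of either group passed the test, where 0.325% of all genes did; at an unadjusted p under 0.05 the counts were 0 cholesterol and 2 of 21 fatty acid genes, where 7.1% of all genes were. DESeq2 likewise called 0 members in either group, and 55 genes in all. Fdps had 1290 and 1110 CPM in batch 2, against 1100, 1160 and 1140 CPM in controls (log2 fold change 0.08 ± 0.14). Hmgcs1 had 468 and 406 CPM, Sqle 75.6 and 68.2 CPM and Insig1 50.4 and 31.2 CPM in batch 2, each at or within 0.36 of its control on the log2 scale. Srebf2 had 232 and 240 CPM in batch 2, both above the controls' 161 to 226 CPM, as 10.9% of all genes were (0.27 ± 0.19, adjusted p = 0.868). Scd2 had 393 and 364 CPM and Scd1 49.8 and 54.1 CPM in batch 2, below all controls, as 9.02% of all genes were (-0.44 ± 0.16 and -0.58 ± 0.28). Their adjusted p-values were 0.372 and 0.679. Fasn, at 19.2 and 19.6 CPM in batch 2, was above all controls, and Acaca, at 7.31 and 7.49 CPM, below all (0.62 ± 0.58, adjusted p = 0.974, and -0.41 ± 0.77, adjusted p = 0.997). Srebf1, at 13.8 and 11.2 CPM in batch 2, overlapped its controls. In all, 4 of 21 cholesterol genes were above and 4 below every control. Of 21 fatty acid genes, 3 were above and 6 below, where 10.9% and 9.02% of all genes were.

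Set directly against batch 1, batch 2 had a negative log2 fold change in 20 of 21 cholesterol genes and a positive one in the other, where 48.9% of all genes were positive. The median was -0.31, against -0.01 over all genes. In 10 of the 21 both batch 2 libraries were below every batch 1 library, where 8.7% of all genes were. None passed the test (lowest adjusted p = 0.81), where 0.102% of all genes did. At an unadjusted p under 0.05 there were 6 of 21, where 2.37% of all genes were. DESeq2 called 0 as well, and 15 genes in all. The fold changes ran from -0.91 for the cholesterol carrier Stard4 to 0.43 for Srebf2, the single positive one. Of the 21 fatty acid genes, 16 were negative, with a median of -0.16.

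**Figure D3:**
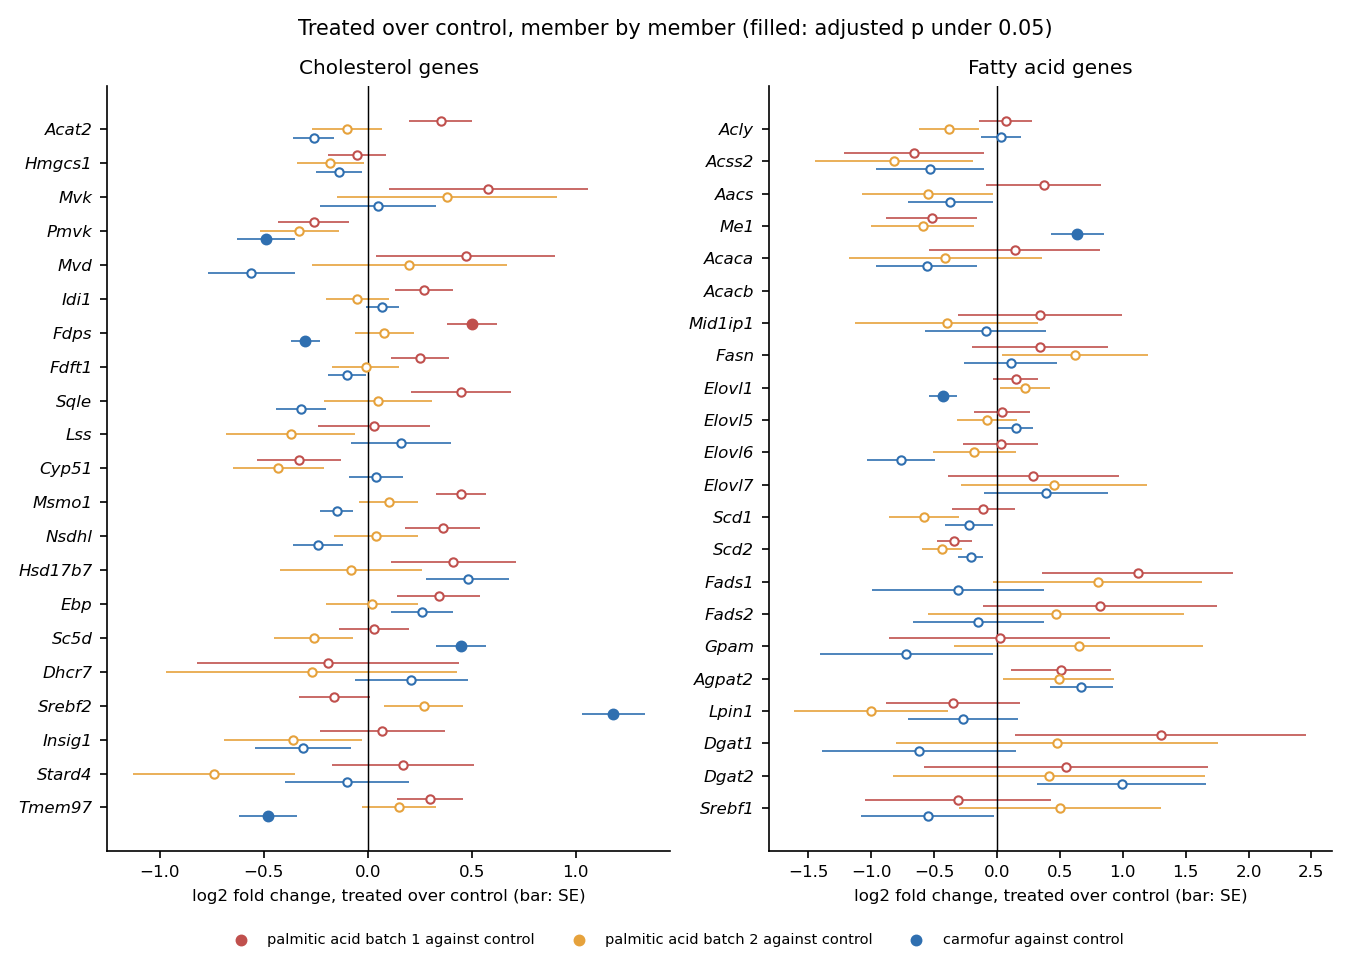
Log2 fold change of each tested member with its SE for palmitic acid batch 1 (red), palmitic acid batch 2 (orange) and carmofur (blue), each over its own control; cholesterol genes are on the left and fatty acid genes on the right, ordered by step of the pathway, and filled points passed an adjusted p of 0.05. Srebf2 with carmofur, at 1.18, lies farthest right among cholesterol genes, while Fdps is filled on opposite sides of 0 for palmitic acid batch 1 (0.50) and carmofur (-0.30). Acacb was not tested.

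With carmofur the regulator gene Srebf2 rose, while the summed level of the other 20 cholesterol genes overlapped with that of controls. Srebf2 had 137, 214 and 357 CPM with carmofur (lowest, median, highest; n = 15), against 81.2, 99.7 and 123 CPM in controls (n = 12). All 15 carmofur libraries were above all 12 controls, which held for 0.59% of all genes tested. The log2 fold change was 1.18 ± 0.15, a fold of 2.27 (adjusted p = 2.66e-07). It stayed past the threshold without the 3 libraries that stood apart (1.11, adjusted p = 2.65e-06) and with counts summed over each set of 3 library numbers, 9 sums in all (1.16 ± 0.23, adjusted p = 0.0193). The other 20 cholesterol genes summed to 4620, 5290 and 5910 CPM with carmofur, against 4680, 5680 and 6690 CPM in controls.

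Over all 27 libraries, 5 of 21 cholesterol genes (23.8%) and 2 of 21 fatty acid genes (9.52%) passed the test, where 9.02% of all genes did. The fatty acid share was thus near the background. Srebf2 and Sc5d were higher (2 of 21, where 5.21% of all genes were) and Fdps, Pmvk and Tmem97 lower (3 of 21, where 3.8% were). Of the 21, 9 were positive, where 50.2% of all genes were. The median log2 fold change was -0.10 for cholesterol and -0.22 for fatty acid genes, against 0 over all genes. With counts summed over each set, Srebf2 alone among the 42 tested passed, where 334 genes of the whole table did. The other 6 members that passed by library then had adjusted p-values from 0.167 (Sc5d) to 0.307 (Me1).

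Among the isoprenoid steps, Fdps had 640, 888 and 1080 CPM with carmofur, against 961, 1060 and 1250 CPM in controls. In 12 of 15 carmofur libraries it was below every control (log2 fold change -0.30 ± 0.07, adjusted p = 0.00281; 0.189 with summed sets). With the Gm43738 counts added the value was -0.31 ± 0.07 (adjusted p = 0.000933). Pmvk (chromosome 3, 89454541 to 89469013) had 108, 168 and 294 CPM with carmofur, against 171, 275 and 312 CPM in controls, with 8 of 15 below every control (-0.49 ± 0.14, adjusted p = 0.0153; 0.062 to 0.0734 without set 3, 8 or 9). Hmgcs1 had 382, 569 and 805 CPM with carmofur, against 512, 584 and 854 CPM in controls, with wide overlap (-0.14 ± 0.11, adjusted p = 0.542).

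Among the sterol steps, Sc5d, a sterol desaturase late in the pathway (chromosome 9, 42251595 to 42264256), had 179, 268 and 336 CPM with carmofur, against 126, 194 and 309 CPM in controls. It rose by a log2 fold change of 0.45 ± 0.12 (adjusted p = 0.00907), although only 4 of 15 carmofur libraries were above every control; without set 4 or 7 the adjusted p was 0.107 or 0.0571. Sqle had 63.3, 86.5 and 120 CPM with carmofur, against 82.2, 107 and 139 CPM in controls (-0.32 ± 0.12, adjusted p = 0.0947; 0.0365 with DESeq2). The remaining 8 sterol steps (Fdft1, Lss, Cyp51, Msmo1, Nsdhl, Hsd17b7, Ebp and Dhcr7) did not pass and ran from -0.24 (Nsdhl) to 0.48 (Hsd17b7). In the isoprenoid steps, Acat2, Mvk, Mvd and Idi1 did not pass either and ran from -0.56 (Mvd) to 0.07 (Idi1).

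Among sensing and transport genes, Tmem97, a sterol-regulated membrane protein (chromosome 11, 78541817 to 78550777), had 80.9, 131 and 219 CPM with carmofur, against 130, 200 and 259 CPM in controls. The groups overlapped, with 6 of 15 carmofur libraries below every control (-0.48 ± 0.14, adjusted p = 0.0181; 0.0843 to 0.0941 without set 4, 6 or 7). Insig1 had 22.3, 56.4 and 126 CPM with carmofur, against 28.6, 81.4 and 113 CPM in controls (-0.31 ± 0.23, adjusted p = 0.539).

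Of the fatty acid genes, Elovl1, an elongase of very long acyl chains (chromosome 4, 118428093 to 118432953), had 101, 128 and 184 CPM with carmofur, against 106, 181 and 213 CPM in controls. It fell by 0.43 ± 0.11 on the log2 scale (adjusted p = 0.00816; 0.203 with summed sets). Cdc20 lies over it on the opposite strand, and whether counting used the strand is not stated in the labels; the value for Cdc20 was 0.51 ± 0.26 (adjusted p = 0.274). Me1 (chromosome 9, 86581371 to 86695953) had 28.3, 85.4 and 145 CPM with carmofur, against 29.2, 61.7 and 98.9 CPM in controls (0.64 ± 0.21, adjusted p = 0.0482). That call was lost without the 3 libraries that stood apart (0.096), without set 3, 4, 5, 6, 7 or 9 (0.0604 to 0.216) and with the block of library numbers as a covariate (0.27).

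The central genes of fatty acid synthesis did not pass. Fasn had 3.88, 18.5 and 28.6 CPM with carmofur, against 3.64, 12.3 and 30.4 CPM in controls (0.11 ± 0.37). Acaca had 0.472, 13.9 and 32.6 CPM with carmofur, against 7.34, 20.8 and 31.7 CPM in controls (-0.56 ± 0.40). Both overlapped widely. Scd1 had 30.7, 81.1 and 139 CPM with carmofur, against 53.6, 93.5 and 163 CPM in controls (-0.22 ± 0.19), and Scd2 had 403, 552 and 777 CPM with carmofur, against 536, 622 and 970 CPM in controls (-0.21 ± 0.10, adjusted p = 0.241). Srebf1 had 0.195, 5.73 and 18.4 CPM with carmofur, against 0.766, 12.5 and 25.7 CPM in controls (-0.55 ± 0.53). The elongase Elovl6 had 2.14, 33.4 and 72.5 CPM with carmofur, against 29.1, 63.1 and 87.1 CPM in controls (-0.76 ± 0.27, adjusted p = 0.0673). Acly, Acss2, Aacs and Mid1ip1, which supply or assist acyl chain synthesis, ran from -0.53 (Acss2) to 0.03 (Acly), and Elovl5, Elovl7, Fads1 and Fads2, further elongases and desaturases, from -0.31 (Fads1) to 0.39 (Elovl7). The 5 glycerolipid assembly genes (Gpam, Agpat2, Lpin1, Dgat1 and Dgat2) ran from -0.72 (Gpam) to 0.99 (Dgat2), without a call. Acacb, not tested, ranged from 0 to 8.81 CPM with carmofur and 0 to 10.1 CPM in controls.

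Beside these results, the 8 adipocyte and hepatocyte markers summed to 15.7, 103 and 165 CPM with carmofur, against 2.43, 18 and 54.8 CPM in controls. Fabp4 and Alb carried this, at means of 57.7 and 33.3 CPM with carmofur and 10.4 and 11.6 CPM in controls, while Adipoq, Plin1 and Serpina1a were at 0 in all libraries. The colon epithelium markers summed to 4430, 5320 and 6720 CPM with carmofur, against 4040, 4680 and 5340 CPM in controls. Lgals4 and Krt19 carried most of this, at means of 3320 and 881 CPM with carmofur and 2690 and 706 CPM in controls. Epcam, Cdh1, Cldn3 and Cldn7 had lower means with carmofur than in controls. The part of either sum in the lipid gene results was not tested.

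Srebf2 was above all controls in each of the 3 blocks of library numbers, which already follows from the separation over all libraries. The carmofur effect on Hmgcs1, Msmo1 and Scd2 differed between blocks when each library was taken as a replicate. The block results rest on that choice. With counts summed over each set, an alternative added after the data were seen (9 sums, 3 of them beyond the 6 means fitted), no member passed in any block or between blocks, and the whole table had 0, 2 and 0 genes past the threshold in blocks 1, 2 and 3. In block 1 Srebf2 had 142, 150 and 197 CPM in 6 carmofur libraries, against 95.9, 104 and 117 CPM in 3 controls, with no overlap, as for 4.64% of all genes (log2 fold change 0.62 ± 0.22, adjusted p = 0.168; 0.041 without set 5). In block 2 it had 137, 295 and 357 CPM in 6 carmofur libraries, against 81.2, 85.5 and 107 CPM in 3 controls (1.59 ± 0.23, adjusted p = 7.12e-06). In block 3 it had 311, 271 and 262 CPM with carmofur, against 89.9, 105 and 123 CPM in 6 controls (1.42 ± 0.20, adjusted p = 6.22e-06). All carmofur libraries were above every control for 6.5% of all genes in block 2 and 7.56% in block 3. Among carmofur sets, sets 6 and 8 had 334 to 357 and 262 to 311 CPM, while sets 2, 3 and 5 overlapped at 146 to 151, 142 to 197 and 137 to 256 CPM. The test of the difference between blocks gave an adjusted p of 0.146 for Srebf2, which was 0.023 without carmofur replicate 7, 0.00401 without set 5 and 0.683 with summed sets.

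**Figure D4:**
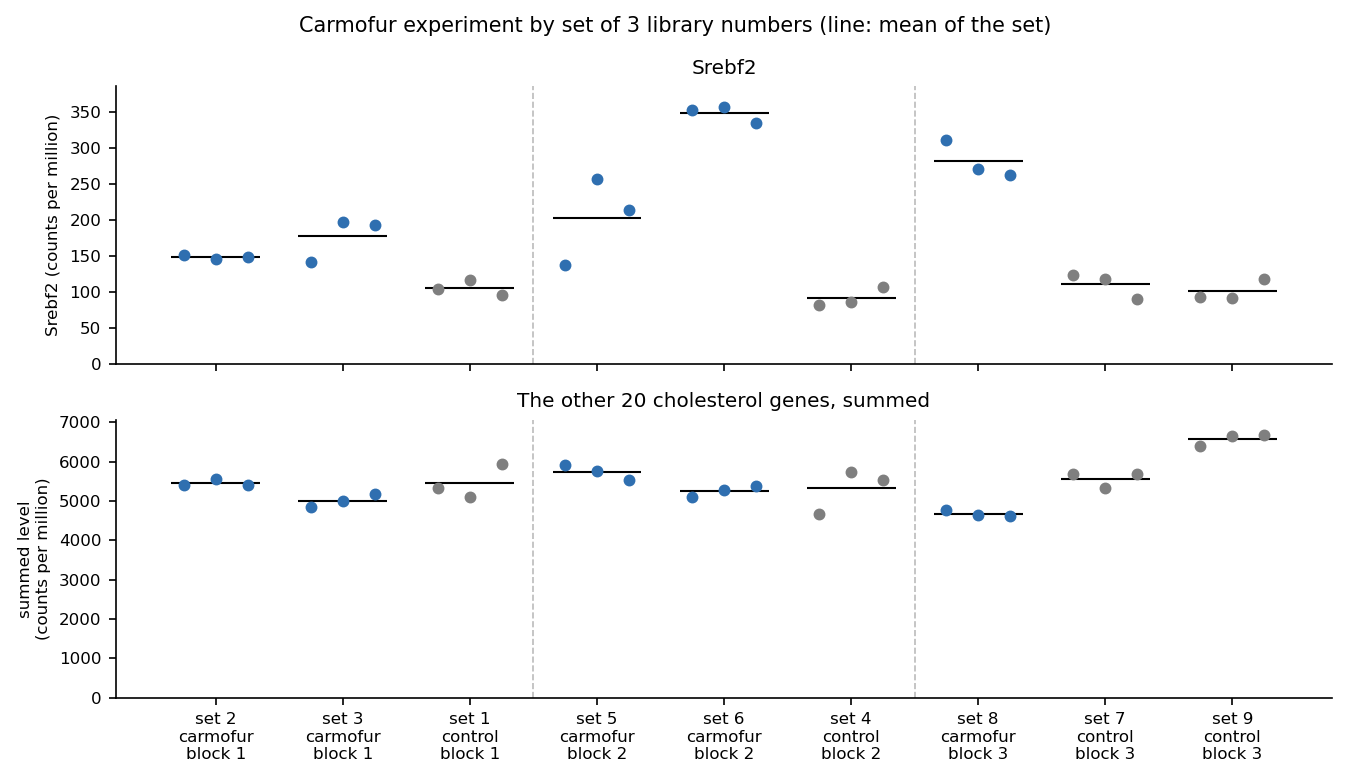
Srebf2 (top) and the summed other 20 cholesterol genes (bottom) in each library of the carmofur experiment, in CPM, by set of 3 library numbers; dashed lines part the 3 blocks, carmofur sets stand left of the control sets of their block, and lines are set means. Srebf2 is above the controls in every carmofur set, as every carmofur library is above every control. The summed genes have their lowest mean in carmofur set 8 (4620 to 4760) and their highest in control set 9 (6390 to 6690).

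In block 1 no member passed (1.76% of all genes did; 5 of 21 cholesterol and 2 of 21 fatty acid genes were at an unadjusted p under 0.05, where 11.2% of all genes were), and the median log2 fold change was 0.04 for cholesterol genes. DESeq2 was not run by block. In block 2, where 8.14% of all genes passed, 3 cholesterol genes were higher (Srebf2, Sc5d and the sterol ketoreductase Hsd17b7; 4.74% of all genes) and Tmem97 was lower (3.39% of all genes). Sc5d had 179 to 336 CPM with carmofur, against 126 to 167 CPM in controls, without overlap (log2 fold change 0.93 ± 0.20, adjusted p = 0.00153). Hsd17b7 (chromosome 1, 169949535 to 169969241) had 47.4 to 63.5 CPM with carmofur, against 13.1 to 36.3 CPM in controls, and Tmem97 had 80.9 to 162 CPM with carmofur, against 181 to 259 CPM in controls. These groups did not overlap either (1.18 ± 0.36, adjusted p = 0.032, and -0.92 ± 0.22, adjusted p = 0.00412); in this block 6.5% of all genes were above and 4.61% below every control. Of 21 fatty acid genes tested, 2 passed (9.52%), near the 8.14% of all genes. Me1 had 85.3 to 145 CPM with carmofur, against 49.8 to 63 CPM in controls (1.19 ± 0.32, adjusted p = 0.0152), and Elovl1 had 104 to 136 CPM with carmofur, against 172 to 210 CPM in controls (-0.67 ± 0.18, adjusted p = 0.0154). With summed sets the adjusted p-values of these 6 members were 0.13 (Srebf2) to 0.259 (Elovl1). The Sc5d and Srebf2 calls stayed in the other 36 alternative fits. Those of Hsd17b7, Tmem97, Me1 and Elovl1 were lost without set 6 (0.057 to 0.126) or control replicate 5 (0.0519 to 0.108), those of Hsd17b7 and Me1 also without control replicate 4 (0.23 and 0.0838), and that of Hsd17b7 without set 5 (0.135) or the 3 libraries that stood apart (0.0669).

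Block 3 held 1 set of carmofur libraries and 2 sets of controls, and there 6 cholesterol genes fell (Hmgcs1, Pmvk, Fdps, Fdft1, Lss and Msmo1), where 2.34% of all genes did. Srebf2 was higher, where 3.72% of all genes were, so 7 of 21 (33.3%) passed, where 6.06% of all genes did; the median log2 fold change was -0.49, against -0.03 over all genes. These calls take the 3 libraries of 1 set as separate replicates. With summed sets the log2 fold changes of the 6 genes ran from -1.26 (Lss) to -0.48 (Fdps and Msmo1), and their adjusted p-values from 0.206 to 0.331. Hmgcs1 had 434, 382 and 431 CPM with carmofur, against 565, 527, 521, 854, 813 and 843 CPM in controls. All carmofur libraries were below all controls, and the last 3 controls, set 9, stood well above the first 3, set 7. The log2 fold change of Hmgcs1 was -0.73 ± 0.16 (adjusted p = 0.00211). Without set 9 it was -0.44, with an adjusted p of 0.098.

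Msmo1 had 678, 842 and 737 CPM with carmofur, against 863, 1010, 1110, 1090, 1190 and 1250 CPM in controls, without overlap (-0.53 ± 0.12, adjusted p = 0.00277). The squalene synthase Fdft1 (chromosome 14, 63145150 to 63179578) had 339, 293 and 283 CPM with carmofur, against 509, 442, 412, 478, 419 and 421 CPM in controls, also apart (-0.55 ± 0.13, adjusted p = 0.00585; 0.061 without carmofur replicate 15). Ctsb overlaps Fdft1 on the opposite strand and stood at 0.05 ± 0.14 in that block. The lanosterol synthase Lss had 33.4, 13.9 and 20.2 CPM with carmofur, against 42.6, 48.6, 25.8, 82.4, 61.3 and 52.7 CPM in controls, where 1 control lay among the treated (-1.22 ± 0.36, adjusted p = 0.0343; 0.0531 to 0.275 without set 2, set 9, carmofur replicate 14 or 15, or control replicate 10 or 11).

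Pmvk had 111, 126 and 154 CPM with carmofur, against 199, 233, 312, 279, 305 and 286 CPM in controls (-1.05 ± 0.23, adjusted p = 0.00274). Fdps had 762, 786 and 767 CPM with carmofur, against 987, 995, 1100, 1170, 1250 and 1150 CPM in controls (-0.52 ± 0.11, adjusted p = 0.00184). Neither pair of groups overlapped. In all, 5 of 21 cholesterol genes had every carmofur library below every control in block 3, where 5.32% of all genes did. Of the fatty acid genes only Scd2 (chromosome 19, 44293674 to 44306864) passed, with 403, 420 and 512 CPM with carmofur, against 596, 615, 681, 759, 867 and 970 CPM in controls (-0.75 ± 0.13, adjusted p = 0.000233; 0.227 with summed sets). That was 1 of 21 fatty acid genes tested (4.76%), near the 6.06% of all genes that passed. The fatty acid median was -0.54. The colon epithelium markers summed to 6440 to 6720 CPM with carmofur and 4580 to 5340 CPM in controls of this block; their part was not tested.

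**Figure D5:**
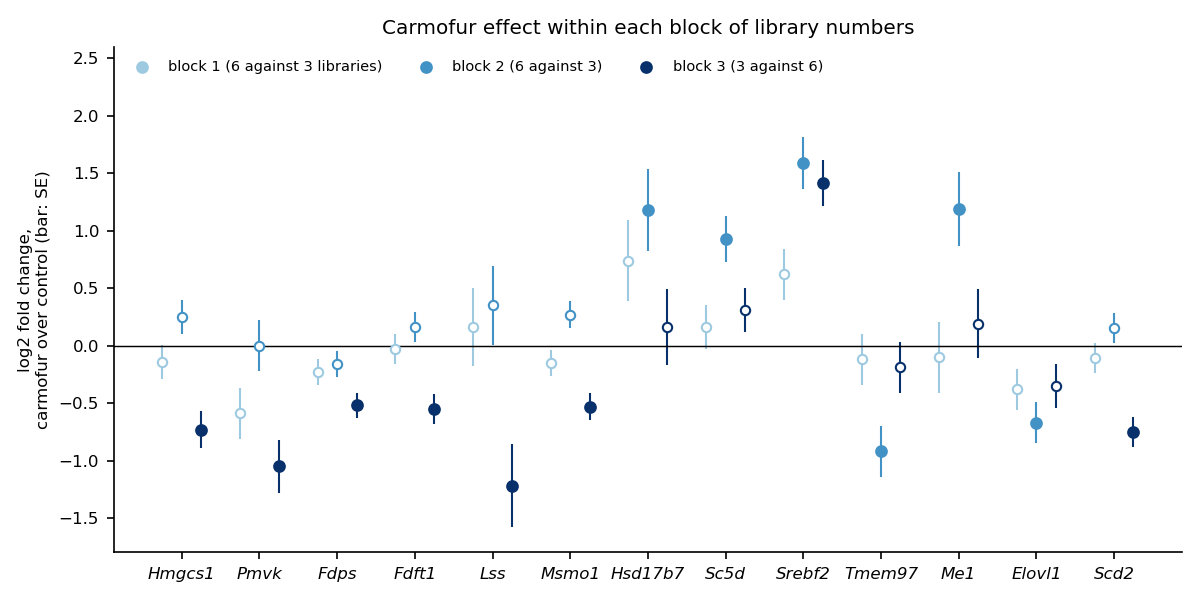
Log2 fold change of carmofur over control, with its SE, within each of 3 blocks of library numbers, for the 13 members past the threshold in the whole experiment or in a block; filled points passed an adjusted p of 0.05. Hmgcs1, Msmo1 and Scd2 are negative in block 3 (-0.73, -0.53 and -0.75) and slightly positive in block 2 (0.25, 0.27 and 0.15).

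The difference between blocks was tested with a 2-degree-of-freedom F test, which 1.78% of all genes passed. It was passed by Msmo1 (adjusted p = 0.015), Hmgcs1 (0.0299) and Scd2 (0.0128) of the 42 members tested. Their fold changes were 0.25 ± 0.15, 0.27 ± 0.12 and 0.15 ± 0.13 in block 2 for Hmgcs1, Msmo1 and Scd2, and -0.14 ± 0.15, -0.15 ± 0.11 and -0.11 ± 0.13 in block 1. With summed sets the adjusted p-values were 0.595 for Msmo1, 0.645 for Hmgcs1 and 0.605 for Scd2. Without set 9 they were 0.0779 for Msmo1, 0.186 for Hmgcs1 and 0.0938 for Scd2. That of Msmo1 was also above 0.05 without control replicate 4 (0.0884) or carmofur replicate 13 (0.0561), and that of Scd2 without carmofur replicate 13 (0.067) or 14 (0.0599). For Hmgcs1 it was 0.0534 to 0.106 without set 2 or 5, control replicate 4, 6, 10, 11 or 12, or carmofur replicate 13, 14 or 15.

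The effects of the compounds were also compared with each other, as carmofur over its control minus palmitic acid batch 1 over its control. Fdps differed by -0.79 ± 0.17 (adjusted p = 0.00879) and Srebf2 by 1.34 ± 0.32 (adjusted p = 0.028), 2 of 21 cholesterol genes where 0.69% of all 14052 genes tested passed. No fatty acid gene did (2 of 22 at an unadjusted p under 0.05, where 6.68% of all genes were). DESeq2 called 0 fatty acid genes here, and 195 genes in all. The Fdps difference was lost without palmitic acid control 1 (0.0538) or batch 1 replicate 3 (0.17). The Srebf2 difference was lost without palmitic acid control 1 or 2, any of the batch 1 replicates, or set 4 or 8 (0.0589 to 0.159). This comparison took each carmofur library as a replicate, and it was not run with summed sets. The experiments have separate controls, and no label links them, so experiment and compound cannot be told apart.

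Genes around the same pathway were counted by lists of function. With palmitic acid in either batch, 0 of 11 tested genes of SREBP processing, 0 of 10 of sterol uptake and transport, 0 of 13 of other sterol and isoprenoid steps and 0 of 26 of other fatty acid and glycerolipid steps passed in edgeR. At an unadjusted p under 0.05 these counts were 1, 0, 0 and 2 in batch 1, and 1, 0, 0 and 1 in batch 2, where 7.73% and 7.1% of all genes were. With carmofur, Agpat4, a lysophospholipid acyltransferase (log2 fold change 3.64 ± 0.96, adjusted p = 0.00899), and Idh1, the cytosolic NADPH-producing isocitrate dehydrogenase (0.27 ± 0.08, adjusted p = 0.0261), passed in the last list, 2 of 26 (7.69%), where 9.02% of all genes passed. None passed in the others, which had 1 of 11, 3 of 10 and 2 of 13 genes at an unadjusted p under 0.05, where 19% of all genes were. Nearest in SREBP processing was the ubiquitin ligase Rnf145 (-0.77 ± 0.28, adjusted p = 0.0868), and in sterol transport the cholesterol acyltransferase Soat1 (0.38 ± 0.13, adjusted p = 0.0666). Within single blocks only Npc2 passed, as lower in block 1 (adjusted p = 0.0366, edgeR). It was 1 of 10 sterol transport genes tested, where 1.76% of all genes passed. With summed sets no gene passed in that block.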

How the data were processed

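The data are 35 RNA-seq libraries. Polyadenylated RNA was used with the NEBNext Ultra II Directional kit, per the labels' protocols. The submitters' processing notes name Salmon 1.3.0 and the build mm10, and the authors deposited estimated counts per gene as whole numbers in 1 table. The annotation release and strand setting are not stated there. The 1243 rows with a gene ID but no gene name stayed in the fits, and no column belonged to an unlisted sample.

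Genes were filtered with filterByExpr, scaled by TMM and tested with edgeR 4.0.16 (quasi-likelihood F test, robust; R 4.3.3), with Benjamini-Hochberg adjustment over all genes tested taking 0.05 as the threshold. A first fit held the 8 libraries of the palmitic acid experiment, another the 27 of the carmofur experiment, and a further one all 35 for the difference between compounds. The biological coefficient of variation was 0.407 and 0.75 in the first 2 fits. Members and lists were chosen with earlier results of these data known. Values per library are given for members past the threshold in any comparison and for Hmgcs1, Sqle, Fdps, Insig1, Srebf2, Fasn, Acaca, Scd1, Scd2 and Srebf1; other members given by value were the nearest to the threshold or complete a count. In the neighbouring lists, the genes that passed are named. The nearest gene is given for SREBP processing and sterol transport with carmofur only. Mvk, Elovl6 and the values of Msmo1 with palmitic acid were chosen after being seen. The positions come from GENCODE M21 and the promoters from RefSeq. The steps were tested on simulated data. No 2 libraries of a group agreed within sampling noise (178 pairs, lowest chi-square per degree of freedom 7.4). Alternatives were DESeq2 1.42.0, limma 3.58.1 (voom), RLE or library-size scaling, no filter, a replicate block, library blocks and sets, and leaving out libraries.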

Additional observations from a re-analysis of the deposited data

Results flagged for a closer look

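The carmofur effect differed between the 3 blocks of library numbers for 3 members by the test of that difference in edgeR: Msmo1 (adjusted p = 0.015), Hmgcs1 (0.0299) and Scd2 (0.0128). With counts summed over each set of library numbers these were 0.595, 0.645 and 0.605, in the same order. In block 3, each gene had every carmofur library below every control, where 5.32% of all genes did. These are values that the test itself used.

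The effects of carmofur and palmitic acid batch 1, each over its own control, differed for 2 members. For Fdps the difference was -0.79 ± 0.17 on the log2 scale (adjusted p = 0.00879, edgeR), with 12 of 15 carmofur libraries below and 3 of 3 batch 1 libraries above every control of their own. For Srebf2 it was 1.34 ± 0.32 (adjusted p = 0.028, edgeR), with 15 of 15 carmofur libraries above every control, where 0.59% of all genes were. Every batch 1 library was above every control for 6.92% of all genes. The Fdps difference was lost in 2 of 22 alternative fits and the Srebf2 difference in 7 of 22. Neither was tested with counts summed over each set of library numbers. Dixon's test for a single outlying library was not applied to groups of 2, 3, 12 and 15 libraries.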

How the results depend on the processing

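No called value changed sign in any alternative. For palmitic acid batch 1, 1 cholesterol gene was among the 55 genes past the threshold. The count was 2 among 80 genes with DESeq2 and 0 among 42 with the replicate block. With both batches as 1 treated group it was 0 among 70. For batch 2, DESeq2 called 55 genes, against 32, and without a filter 19 genes differed between the batches, against 10. For carmofur, no filter gave 3541 genes, against 901. Counts summed over each library set gave 334 genes, 1 cholesterol member and 0 fatty acid members, against 901, 5 and 2. By block, summed sets gave 0 genes in block 1, 2 in block 2, 0 in block 3 and 0 between blocks, with 0 cholesterol and 0 fatty acid members in each, against 176, 813, 606 and 178 genes. Over all carmofur libraries and controls, the fatty acid count was 4 among 1169 genes with DESeq2. It was 1 with RLE scaling (903 genes), the library block as a covariate (1074) or the set as a correlated group (871). It was also 1 with the 3 libraries that stood apart left out (929). Leaving those out gave 90 genes in block 1, against 176, and 105 between blocks, against 178. The difference between compounds had 195 genes with DESeq2 and 254 with voom, against 97. The cause was not tested.

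Leaving out 1 replicate or library set at a time gave these ranges. Batch 1 had 21 to 72 genes and 0 to 1 cholesterol members, and the batches differed in 2 to 14 genes. The compounds differed in 22 to 129 genes and 0 to 2 cholesterol members. Carmofur had 740 to 981 genes with 3 to 6 cholesterol and 1 to 3 fatty acid members. Block 1 had 43 to 231 genes and 0 to 1 cholesterol members. Block 2 had 465 to 862 genes with 2 to 5 cholesterol and 0 to 3 fatty acid members. Block 3 had 388 to 668 genes with 5 to 9 cholesterol and 1 to 2 fatty acid members. Between blocks, 97 to 289 genes, 0 to 3 cholesterol and 0 to 2 fatty acid members passed.

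No label states that libraries with the same replicate number were paired. Their deviations from the group mean correlated at -0.0258 to 0.0475. With that number as a block, batch 1 had 42 genes, batch 2 28, the batches differed in 8, and carmofur had 799, with its 5 cholesterol and 2 fatty acid members unchanged in number. Best with their own number correlated 1 of 3 libraries of batch 1 and 0 of 2 of batch 2 with controls, 2 of 2 between the batches, and 1 of 12 with carmofur. The deviations of the 2 batch 2 libraries mirror each other, so their checks are not independent. The Fdps value of batch 1 was 0.49 with the block (adjusted p = 0.0852, edgeR). The lowest values of Acaca, Acacb and Srebf1 lay at or near the level of 3 counts. For Fasn this held in palmitic acid control 1 (3.87 CPM). Its lowest value of all, 3.64 CPM in carmofur control 8, was above the 0.437 CPM that 3 counts make there.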
